A study of Mus musculus with 16 samples.

Results

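The response of male murine tracheal epithelial cell cultures (MTECs) to house dust mite extract (HDM) was measured by comparing 4 HDM-treated with 4 naive RNA sequencing libraries, with genotype as a covariate. These 8 libraries were chosen by their labels from the 16 in the series, and 15358 of the 49315 gene identifiers in the count table passed the filter on low counts and were tested. MTECs are primary cells of the mouse trachea that are grown with air above and medium below until ciliated and secretory cells form. The cultures came from WT mice or mice labelled knockout (KO) for Lman1, and were left untreated (naive) or given 20 ug/ml HDM overnight. Each combination of genotype and treatment had 2 libraries labelled as biological replicates, so that the male groups were WT naive, WT HDM, KO naive and KO HDM. Cells of several tracheas were pooled for each culture, and both genotypes were on the C57BL/6J background.

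House dust mites shed proteases, lipid-binding proteins, chitin and microbial products that the airway epithelium meets first. Toll-like and protease-activated receptors on these cells can pass such signals to NF-κB, a family of transcription factors (RelA, RelB, c-Rel, p50 and p52) that inhibitor of κB (IκB) proteins hold in the cytoplasm. When IκB is degraded, NF-κB enters the nucleus and switches on genes for defence and also for its own inhibitors, so that transcripts such as Nfkbia (IκBα) and Nfkb2 (the precursor of p52) are commonly read as a trace of the pathway's activity.

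Lman1, the gene targeted in the KO mice, encodes a cargo receptor that carries glycoproteins out of the endoplasmic reticulum and has been described as a receptor for HDM. In WT naive libraries it stood at 108 and 136 CPM (counts scaled to library size with TMM factors), and in WT HDM libraries at 111 and 144 CPM. In the libraries labelled KO it stood at 14.0 and 62.9 CPM in naive and 65.1 and 66.0 CPM in HDM cultures. The transcript was therefore lower in every library labelled KO than in every WT library, was present in all of them, and in KO naive replicate 1 was far below the other 3 libraries with that label. KO is used below as the label and not as a measured absence of the transcript. Mcfd2, which encodes the partner of LMAN1 in cargo transport, lay between 60.2 and 73.0 CPM in all 8 libraries.

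The libraries held between 27584468 and 36704572 counts on genes. The first principal component of log2 CPM carried 46.4% of the variance and did not follow treatment or genotype. WT naive replicate 1, WT HDM replicate 1 and KO naive replicate 1 had scores of -31.1, -40.2 and -33.1, whereas the other 5 libraries lay between 4.57 and 29.7. Foxj1, the master regulator of ciliated cells, was at 96.9, 96.1 and 96 CPM in those 3 libraries and between 46.6 and 55.5 CPM in the other 5. Col1a1, a collagen chain of fibroblasts, was at 0.66, 0.91 and 1.12 CPM in those 3 and between 3.61 and 62.4 CPM in the other 5. The summed level of the 15 listed fibroblast markers did not set these libraries apart. It was 582, 746 and 501 CPM in those 3 and between 392 and 897 CPM in the other 5. The basal cell genes Krt5 (2709.9 to 4746 CPM) and Trp63 (227 to 278 CPM) were high throughout, the T cell gene Cd3e had at most 1 count, and the club cell secretoglobin Scgb1a1 reached only 1.75 CPM. Main results below are also given without these 3 libraries.

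**Figure D1:**
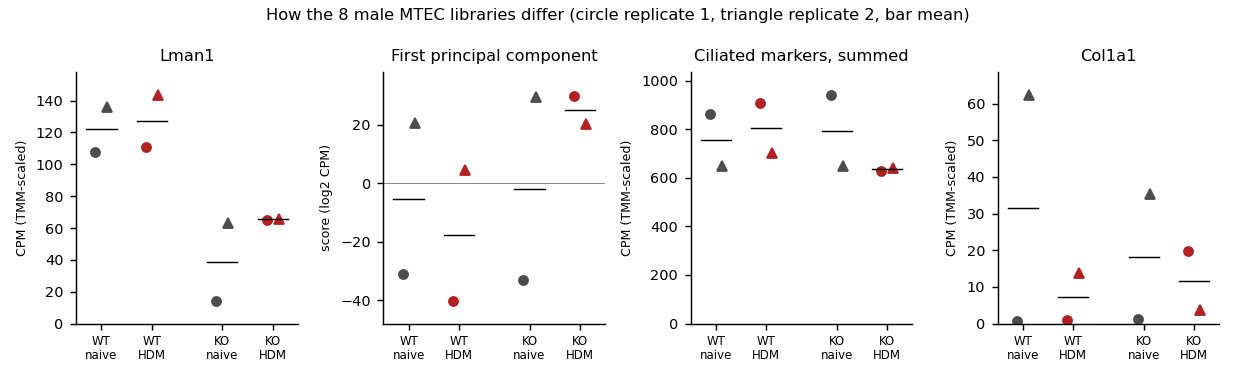
Each panel plots the 8 male MTEC libraries by group, with circles for replicate 1, triangles for replicate 2 and a bar at the group mean, for Lman1 (CPM), the score on the first principal component, the summed CPM of the ciliated markers and Col1a1 (CPM). KO naive replicate 1 has the lowest Lman1 (14.0 CPM), and it shares a negative score, high ciliated markers and almost no Col1a1 with replicate 1 of both WT groups.

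No gene passed the adjusted threshold in the pooled comparison. The quasi-likelihood test of edgeR found 0 of 15358 genes (0%) with an adjusted p under 0.05 (Benjamini-Hochberg). At an unadjusted p under 0.05 there were 240 genes, of which 118 were higher in HDM (0.768%) and 122 lower (0.794%), together fewer than the 5% that evenly spread p-values would give. That count was 397 without WT naive replicate 2, 427 without WT HDM replicate 1, 444 without KO naive replicate 2, 147 without KO HDM replicate 1 and 612 without the 3 libraries that stood apart. DESeq2's Wald test called 12 genes (0.0781%), all higher in HDM, and had 201 genes at an unadjusted p under 0.05. A fit with 1 surrogate variable, a covariate estimated from the same counts to absorb variation not due to genotype or treatment, called 7 genes (0.0456%), again all higher in HDM. Without the 3 libraries edgeR called 14 genes, 13 higher and 1 lower. C3, Parm1, Birc3 and Relb were called in each of these last 3 fits.

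The gene nearest to a call in the pooled fit was C3, which encodes the central component of the complement system and is made by airway epithelium. C3 (chr17:57203970-57228136, minus strand, GRCm38, protein coding) stood at 216 and 184 CPM in WT naive, 385 and 409.7 CPM in WT HDM, 189.5 and 189 CPM in KO naive and 303 and 369.7 CPM in KO HDM libraries. All 4 HDM libraries lay above all 4 naive libraries. The log2 fold change was 0.91 ± 0.09 (SE; 95% interval 0.71 to 1.11), with an adjusted p of 0.0735 by edgeR. In WT and KO taken alone it was 0.99 and 0.83. Over 21 alternative fits, which included each library left out, it stayed between 0.85 and 0.98, and 5 of them called it.

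Genes of the NF-κB pathway were mostly higher in HDM. All 18 members of a list of its subunits, inhibitors and feedback genes were tested. Of these, 8 were higher in HDM at an unadjusted p under 0.05 and 0 were lower, where 0.768% and 0.794% of all tested genes were, and 17 of 18 had a positive log2 fold change, the exception being Traf1 at -0.64 ± 0.60. The list's median was 0.22, against 0.00 over all genes. None of the 8 passed adjustment in the pooled edgeR fit. The count of 8 fell without KO HDM replicate 1 and without KO HDM replicate 2, where the list's median was 0.22 and 0.29. Without the 3 libraries the median was 0.17. With the surrogate variable 11 members were higher at an unadjusted p under 0.05, where 295 of all 15358 genes were.

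Among the subunits, Relb, the partner of p52 in the non-canonical pathway, stood at 42.3 and 35.8 CPM in WT naive, 57.9 and 52.5 CPM in WT HDM, 42.6 and 36.2 CPM in KO naive and 52.98 and 51.0 CPM in KO HDM libraries. Its log2 fold change was 0.45 ± 0.08 (SE). Nfkb2 was at 104 and 88.6 CPM in WT naive, 133 and 119 CPM in WT HDM, 103 and 93.2 CPM in KO naive and 122 and 120.5 CPM in KO HDM libraries, a log2 fold change of 0.35 ± 0.07. For both genes the HDM libraries lay above all naive libraries. The log2 fold change was 0.08 ± 0.05 for Nfkb1, which encodes the precursor of p50, and it was 0.01 ± 0.06 for Rel, which encodes c-Rel.

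Among the inhibitors, Nfkbia was at 66.3 and 58.1 CPM in WT naive, 98.9 and 85.4 CPM in WT HDM, 73.7 and 54.6 CPM in KO naive and 83.3 and 83.5 CPM in KO HDM libraries. The groups did not overlap, and the log2 fold change was 0.47 ± 0.10. The genes for IκBε and IκBβ were also higher, with log2 fold changes of 0.50 ± 0.20 for Nfkbie and 0.26 ± 0.07 for Nfkbib. For Nfkbie the treatments overlapped, since WT HDM replicate 2 at 15.4 CPM was below WT naive replicate 1 at 17.9 CPM. Bcl3, an atypical IκB that works in the nucleus, had a log2 fold change of 0.28 ± 0.11 and Nfkbiz, another, 0.03 ± 0.08. Tnfaip3 (A20), an enzyme that shuts the pathway off, gave 0.24 ± 0.29 in the pooled fit, with 45.2 CPM in WT naive replicate 1 and 45.5 CPM in KO naive replicate 1 against 28.1 and 19.4 CPM in the other naive libraries. With the surrogate variable its log2 fold change was 0.40, and without the 3 libraries it was 0.59.

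Birc3, which encodes the ubiquitin ligase cIAP2 and is a target as well as a regulator of the pathway, was the member with the smallest p. It stood at 26.9 and 24.7 CPM in WT naive, 37.1 and 34.3 CPM in WT HDM, 24.6 and 22.4 CPM in KO naive and 33.0 and 35.3 CPM in KO HDM libraries. All HDM libraries lay above all naive libraries, and the log2 fold change was 0.51 ± 0.07 (adjusted p = 0.259 by edgeR). It was 0.47 in WT and 0.54 in KO. Icam1, an adhesion molecule for leukocytes, was higher by 0.31 ± 0.13 on the log2 scale, with WT HDM replicate 1 at 173 CPM and the other 3 HDM libraries between 232 and 236 CPM.

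**Figure D2:**
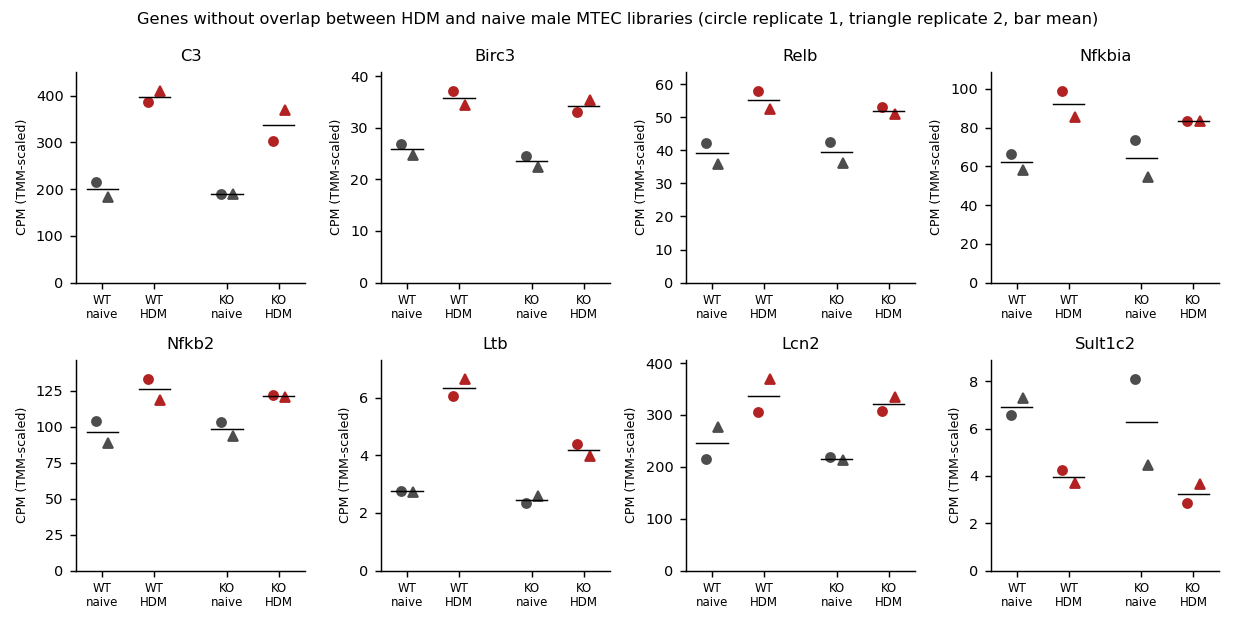
CPM of 8 genes in the 8 male MTEC libraries by group, with circles for replicate 1, triangles for replicate 2 and a bar at the group mean. In each panel the 4 HDM libraries lie on 1 side of the 4 naive libraries: above them for C3, Birc3, Relb, Nfkbia, Nfkb2, Ltb and Lcn2, below them for Sult1c2.

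The κB consensus, a motif of 10 bases bound by NF-κB dimers, was searched on both strands in the 250 bases upstream of RefSeq start sites (GRCm38.p6), since most members of the list were higher in HDM. It was present upstream of 8 of 14 list members with a sequence (57.1%), of 2 of 9 of the higher genes named by rule (22.2%) and of 0 of 7 of the lower ones, against 1192 of 11180 tested genes with a sequence (10.7%) and 7.25% of all such promoter sequences. A match of letters is a description and does not show binding. The list was put together from genes of the pathway, so its share of matches describes the list and does not bear on the HDM response. Windows of 50 bases around a match are given 5′ to 3′ on the gene's strand, with the match in capitals. They are shown for the list members Nfkbia, Nfkb2 and Nfkbie and for Ltb, which were higher in HDM, and for Rel, which was not.
Nfkbia, chr12:55492648-55492697, minus strand: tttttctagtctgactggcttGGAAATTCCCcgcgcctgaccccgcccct
Nfkb2, chr19:46304678-46304727, plus strand: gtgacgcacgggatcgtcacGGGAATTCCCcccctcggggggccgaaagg
Nfkbie, chr17:45555574-45555623, plus strand: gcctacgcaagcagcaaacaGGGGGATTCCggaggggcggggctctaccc
Ltb, chr17:35194400-35194449, plus strand: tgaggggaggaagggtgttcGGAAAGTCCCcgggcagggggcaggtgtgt
Rel, chr11:23771032-23771081, minus strand: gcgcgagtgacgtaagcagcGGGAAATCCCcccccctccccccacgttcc
The match thus occurred both in genes that were higher in HDM and in Rel, whose log2 fold change was 0.01. The list members Tnfaip3, Tnip1, Tnip3 and Cyld also had a match, as did Steap4, and their windows are not printed.

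Other genes without overlap between treatments were higher in HDM. Ltb (chr17:35194439-35196320), which encodes lymphotoxin beta, a membrane-bound ligand of the non-canonical NF-κB pathway, was at 2.77 and 2.73 CPM in WT naive, 6.06 and 6.65 CPM in WT HDM, 2.35 and 2.57 CPM in KO naive and 4.40 and 3.99 CPM in KO HDM libraries. Its log2 fold change was 0.99 ± 0.14, the largest of the 10 higher genes named by rule. Lcn2, which encodes the iron-binding antimicrobial protein lipocalin 2, was at 215 and 277 CPM in WT naive, 306 and 369 CPM in WT HDM, 218 and 213 CPM in KO naive and 308 and 335 CPM in KO HDM libraries (log2 fold change 0.51 ± 0.10). Steap4, a metalloreductase of iron and copper, had a log2 fold change of 0.80 ± 0.13, with WT HDM replicate 2 at 37.1 CPM and the other HDM libraries between 22.2 and 24.7 CPM. Vnn3, a pantetheinase, had a log2 fold change of 0.87 ± 0.16.

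Parm1, a membrane mucin-like protein, was higher by 0.56 ± 0.07 (adjusted p = 0.221 by edgeR). Dhrs3, which reduces retinal and so limits retinoic acid, was at 307 and 283 CPM in WT naive, 361 and 360.5 CPM in WT HDM, 324 and 346 CPM in KO naive and 439 and 447 CPM in KO HDM libraries, a log2 fold change of 0.35 ± 0.06. Cyp26b1, which degrades retinoic acid, had a log2 fold change of 0.86 ± 0.29 and was among the 7 genes called with the surrogate variable. Psd completed the 10 higher genes named by rule, with a log2 fold change of 0.48 ± 0.09, but its exons share 299 bases with those of Nfkb2 on the opposite strand, and reads there cannot be told apart since strand-specific counting is not stated. Serpina3g, a protease inhibitor named after its values were seen because DESeq2 called it, lay between 0.46 and 1.05 CPM in naive and between 1.54 and 4.13 CPM in HDM libraries. It belongs to a cluster of near-identical genes whose reads may be split.

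The 10 lower genes named by rule had log2 fold changes between -0.87 and -0.18. Sult1c2, a sulfotransferase, was at 6.59 and 7.27 CPM in WT naive, 4.24 and 3.70 CPM in WT HDM, 8.09 and 4.47 CPM in KO naive and 2.86 and 3.64 CPM in KO HDM libraries. The groups did not overlap, and its log2 fold change was -0.87 ± 0.20. Gpd1, which links glycolysis to glycerolipid synthesis, had the smallest p of the lower genes with a log2 fold change of -0.37 ± 0.08, although 384 of its exon bases are shared with the antisense gene Gm16537. F2r, which encodes the thrombin receptor PAR1, was at 226 and 199 CPM in WT naive, 179 and 166 CPM in WT HDM, 199 and 195 CPM in KO naive and 175 and 178 CPM in KO HDM libraries, a log2 fold change of -0.23 ± 0.06. Chil4, a chitinase-like protein of secretory cells, gave -0.45 ± 0.12, with -0.73 in WT and -0.17 in KO. The other 6 genes named by rule were Plch1, Lgals12, Klf13, Rapgefl1, Clic3 and Ppp1r1b, with log2 fold changes between -0.50 and -0.18. In none of the 21 alternative fits was Gpd1 or Sult1c2 called.

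No cytokine or alarmin, the signals that the epithelium sends to immune cells, passed the unadjusted threshold in the pooled fit of all 8 libraries. Of 16 genes on that list 10 were tested, and 0 by edgeR had an unadjusted p under 0.05 in either direction, with a median log2 fold change of -0.06. The list's median was 0.08 without the 3 libraries that stood apart and 0.10 without KO naive replicate 1 alone. The count of 0 also changed in these fits, each of which leaves 1 library in at least 1 group. Il33, an alarmin stored in the nucleus, stood at 50.2 and 45.1 CPM in WT naive, 71.1 and 62.1 CPM in WT HDM, 53.2 and 21.5 CPM in KO naive and 25.8 and 24.8 CPM in KO HDM libraries. Its HDM libraries were thus above naive in WT and between the naive libraries in KO, and the pooled log2 fold change was -0.03 ± 0.29 (95% interval -0.70 to 0.65). Without KO naive replicate 1 it was 0.39 and without the 3 libraries 0.33. Tslp had at most 4 counts and Il25 at most 1 count in any of the 8 libraries, so that a change in them was not detectable at this depth.

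Il1b varied more between replicates than between treatments, at 0.0329 and 14.2 CPM in WT naive, 4.34 and 0.123 CPM in WT HDM, 3.54 and 5.93 CPM in KO naive and 5.40 and 0 CPM in KO HDM libraries. Il6, at most 0.943 CPM, and Il1a were also highest in WT naive replicate 2. The growth factors for myeloid cells had log2 fold changes of 0.13 ± 0.17 for Csf1, 0.25 ± 0.45 for Csf2 and -0.07 ± 0.26 for Csf3. Lif, Il18 and Tnf gave -0.06 ± 0.29, -0.26 ± 0.26 and 0.30 ± 0.38.

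Of 17 tested chemokines 1 had an unadjusted p under 0.05 in the pooled fit. With the surrogate variable 4 were higher and 1 lower, where 295 and 355 of all 15358 genes were. The count also changed without the 3 libraries or without KO naive replicate 1. The gene in the pooled fit was Cxcl16, which draws CXCR6-bearing T cells, with a log2 fold change of 0.35 ± 0.10. Of its exon bases 552 are shared with Zmynd15 on the other strand. At the same unadjusted threshold, among 14 tested sensors of mite products, Cd14, the co-receptor of TLR4 for lipopolysaccharide, was higher by 0.34 ± 0.10 and F2r was lower. Among 16 antimicrobial genes Lcn2 and Slpi, a secreted inhibitor of leukocyte proteases, were higher, Slpi by 0.45 ± 0.16. Ndrg1, Aldoc and Ankrd37 of the 24 glycolysis and hypoxia genes were lower, by log2 fold changes of -0.33 ± 0.09, -0.45 ± 0.16 and -0.58 ± 0.23.

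Of the immediate early genes and ligands of the EGF receptor, 1 of 24 was lower at an unadjusted p under 0.05, Fosb at -0.42 ± 0.15. Cyp3a13 and Cyp26b1 of 19 cytochrome P450 genes were higher, Cyp3a13 by 0.46 ± 0.11. Muc20 was higher by 0.45 ± 0.17 and Chil4 lower among 15 goblet and mucin genes, with 627 exon bases of Muc20 shared with Muc4. Tjp3 of 17 junction genes, Gstp1 of 27 NRF2 and glutathione genes and Cd74 of 7 immune markers were higher, by 0.23 ± 0.09, 0.16 ± 0.05 and 0.38 ± 0.16. None of these genes other than Lcn2 and Cyp26b1 was called in the fits by DESeq2, with the surrogate variable or without the 3 libraries. The unadjusted counts of these lists also moved without the 3 libraries, a fit in which only KO HDM keeps 2 libraries.

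The remaining 18 lists had 0 members at an unadjusted p under 0.05 with all 8 libraries. These were 31 interferon-stimulated, 8 club, 21 ciliated, 13 basal, 11 squamous, 7 aryl hydrocarbon receptor target, 25 endoplasmic reticulum folding, 15 endoplasmic reticulum export, 24 proliferation, 28 sterol and fatty acid, 17 circadian, 15 p53 target, 11 eicosanoid, 15 protease and remodelling, 12 fibroblast, 9 rare epithelial, 4 endothelial, muscle, nerve and thyroid and 13 mitochondrially encoded genes. The interferon-stimulated genes had a median log2 fold change of 0.16, which was -0.14 in WT and 0.51 in KO. Without WT naive replicate 2 the median was 0.41, and without the 3 libraries it was -0.01. The counts of 0 changed in most of the 18 lists without the 3 libraries, a fit that leaves 1 library in 3 of the 4 groups.

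The ciliated genes had a median log2 fold change of -0.73, with -0.14 in WT and -1.26 in KO, and 20 of the 21 were negative. Their summed level was 864 and 651 CPM in WT naive, 908 and 701 CPM in WT HDM, 942 and 648 CPM in KO naive and 630.1 and 639 CPM in KO HDM libraries, so that KO naive replicate 1 stood far above the other 3 libraries labelled KO. Without that library the median was -0.05, and without the 3 libraries it was 0.10. The 12 tested fibroblast genes had a median of -0.24. It was 0.39 without WT naive replicate 2, with 11 positive, and -0.81 without KO HDM replicate 1. It was -0.72 without WT HDM replicate 2, -0.70 without KO naive replicate 1 and -0.49 without WT naive replicate 1. Without the 3 libraries it was -0.74. None of the 15 listed markers was at 0 in all 8 libraries, and their summed level was 392 to 746 CPM in HDM and 501 to 897 CPM in naive libraries. In these bulk samples fewer cells of a type and less RNA per cell cannot be told apart, and the part of cell makeup in the HDM comparison was not tested.

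The genotypes moved alike in few genes. In WT and also in KO, both HDM libraries lay above both naive libraries in 235 genes (1.53%) and below them in 182 genes (1.19%). In more genes the genotypes lay on opposite sides: 668 genes (4.35%) were above in WT and below in KO, and 725 (4.72%) were below in WT and above in KO. So few libraries can also fall in these orders without any response, so that the counts alone do not show one. Across all 15358 genes 36.7% had a log2 fold change of the same sign in both genotypes, and the correlation of WT with KO log2 fold changes was -0.12, with a range of -0.33 to 0.21 when 1 library was left out. Over the 6451 genes whose mean log2 CPM reached 5 it was -0.46. Both describe genes that share libraries and are not independent. Over those 6451 genes it was 0.01 without WT HDM replicate 1, -0.15 without WT naive replicate 2 and -0.23 without KO naive replicate 1. The NF-κB list had 6 members among the 235 genes (Relb, Bcl3, Nfkbib, Birc3, Nfkbia and Nfkb2). All 10 higher genes named by rule are among the 235 by construction, since the rule took genes without overlap between treatments.

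When all 4 HDM libraries were set against all 4 naive libraries regardless of genotype, 90 genes lay above (0.586%) and 76 below (0.495%). This order, too, can arise without a response. Of the 417 genes that moved alike, 88 of the higher and 80 of the lower also had an unadjusted p under 0.05. A stricter definition, under which both genotypes also had to change by 0.5 or more on the log2 scale, left 59 of the 417. With any 1 library left out, which leaves 1 library to compare in its group, between 707 (without KO HDM replicate 1) and 1340 genes (without KO naive replicate 2) moved alike.

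**Figure D3:**
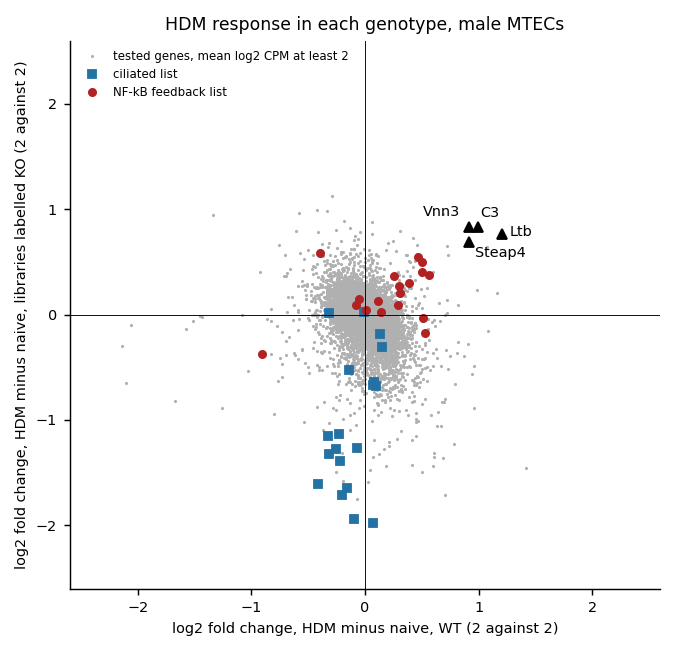
Log2 fold change of HDM minus naive in WT (horizontal axis) against that in the libraries labelled KO (vertical axis), 2 libraries against 2 in each, for tested genes whose mean log2 CPM reached 2 (grey), the NF-κB list (red), the ciliated list (blue) and 4 named genes (black triangles). The grey cloud slopes downward, C3, Ltb, Vnn3 and Steap4 lie at the upper right with positive values in both genotypes, and most ciliated genes are low in KO.

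With all 8 libraries, a difference between the genotypes in the HDM response was not shown for any gene. The interaction was called for 0 of 15358 genes (0%) by edgeR and 0 by DESeq2, with 932 genes (6.07%) at an unadjusted p under 0.05 by edgeR and 691 by DESeq2. WT alone and KO alone each gave 0 calls (0%), with 467 and 483 genes at an unadjusted p under 0.05. The unadjusted interaction count was 389 without WT naive replicate 2, 356 without WT HDM replicate 1, 384 without KO HDM replicate 1, 224 without KO HDM replicate 2, 1747 without WT HDM replicate 2 and 2199 without KO naive replicate 2. Without the 3 libraries 335 genes were called, in a fit where only KO HDM keeps 2 libraries, so that the spread of that pair stands for the lone library of each of the other 3 groups.

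The 3 smallest interaction p-values in each direction belonged to Lactb2, Celf2 and Samd9l, with higher responses in KO, and to Notch1, Rps21 and Tcf3, with lower ones. Notch1, a receptor that steers airway cells between secretory and ciliated fates, was at 187 and 173 CPM in WT naive, 216 and 197 CPM in WT HDM, 162 and 155 CPM in KO naive and 119.6 and 132 CPM in KO HDM libraries. HDM libraries lay above naive in WT and below naive in KO. Samd9l, an interferon-induced antiviral protein, went the other way, at -0.15 in WT and 0.43 in KO on the log2 scale. The adjusted p of all 6 was 0.709 (edgeR).

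The size of change that these 8 libraries could show was computed for each gene from its standard error. The smallest log2 fold change reaching an unadjusted p of 0.05 had a median of 0.26 over 15358 genes, a 1.2-fold change, with 10% of genes under 0.14 and 90% under 0.89. It depended on expression: the median was 0.88 for genes with a mean log2 CPM under 0, 0.54 from 0 to 2, 0.31 from 2 to 4, 0.19 from 4 to 6, 0.16 from 6 to 8 and 0.20 from 8 upward. The fitted change exceeded this limit in 1.56% of genes. A gene called alone after adjustment over 15358 genes needs a p of 3.26e-06, whereas genes called together can pass at a larger p. The median change that reaches 3.26e-06 was 1.24, a 2.36-fold change. For genes with a mean log2 CPM from 6 to 8 that change was 0.77, a 1.7-fold change.

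The members differed in what could be seen. For the NF-κB list the median smallest change at an unadjusted p of 0.05 was 0.22, and for the 25 endoplasmic reticulum folding genes 0.23. It was 0.61 for the interferon-stimulated, 1.28 for the ciliated and 2.19 for the fibroblast genes, so that a change of 1 on the log2 scale could have reached that p for 42.9% of the ciliated genes. In WT or KO alone, with 2 libraries against 2, the median was 0.36 in each, and for the interaction it was 0.51. With the surrogate variable the pooled median was 0.18.

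**Figure D4:**
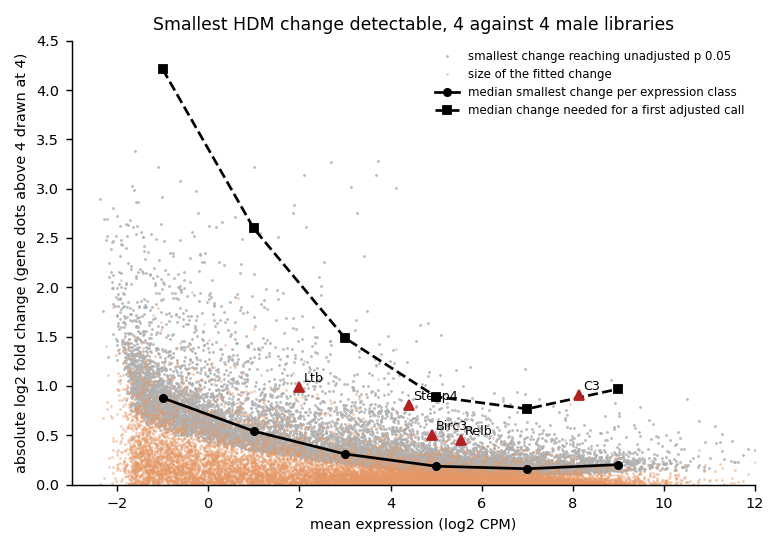
Smallest absolute log2 fold change reaching an unadjusted p of 0.05 (grey dots) and size of the fitted change (orange dots) for each tested gene against its mean log2 CPM. The black line joins the median smallest change per class of expression (0.88 to 0.16). The dashed line joins the median change needed for a first call after adjustment when 1 gene is called alone (4.21 to 0.77). Red triangles mark 5 named genes, of which C3 lies close to the dashed line.

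The 8 libraries of female MTECs in the series had the same design, with WT and KO cultures left naive or given HDM. Female Lman1 stood at 12.8 CPM in both KO naive and at 66.6 and 78.1 CPM in KO HDM libraries. The Lman1 level thus went with treatment there, and the 2 cannot be told apart in the female KO response. The same holds for averages over genotypes and differences from male MTECs that use these libraries, and it was not tested. In a fit of all 16 libraries, the female HDM response averaged over genotypes was called in 3103 genes with higher values (19.4%) and 3496 with lower values (21.9%) of 15993, whereas the male response was called in 0, with 356 genes at an unadjusted p under 0.05. The difference itself, male minus female response, was called for 2057 genes in the positive (12.9%) and 1875 in the negative direction (11.7%). Among the 6401 genes called in female MTECs and tested in male MTECs, the female estimate lay outside the male 95% interval for 5871 (91.7%), and the difference was called for 3817 of these. The 91.7% is not a test of the difference, since the genes were chosen by their female change. The male interval also leaves out the female standard error. The median absolute log2 fold change was 0.06 in male and 0.25 in female MTECs. The HDM response differed between the sexes in 3866 genes in WT libraries alone and in 569 in the libraries labelled KO alone. The female values that follow are averages over WT and KO, and the 2 genotypes often differed in size.

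The 5 genes with the smallest p in the positive direction were Aldh1a1, Hcar2, Fam83e, Wfdc1 and Acsm1. Aldh1a1, which makes retinoic acid and has a close copy in Aldh1a7, had a female log2 fold change of -3.07 ± 0.08 and a male one of -0.02 ± 0.08 in the same fit. Ntn1, Slc24a3, Kirrel and Sorbs2 were among those in the negative direction. Ntn1, which encodes the guidance protein netrin 1, had a female log2 fold change of 2.26 ± 0.10 against 0.31 ± 0.10 in male MTECs. Csf1 rose by 1.91 ± 0.16 in female MTECs (edgeR adjusted p = 5.27e-06), with 0.13 ± 0.16 in male MTECs.

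In female MTECs 10 of the 18 members of the NF-κB list rose and 3 fell after adjustment, where 19.4% and 21.9% of all tested genes did. The list's median log2 fold change was 0.57 in WT and 0.12 in KO. Relb, Nfkb2, Nfkbia and Nfkbie rose in female MTECs by 0.66 ± 0.08, 0.46 ± 0.06, 0.43 ± 0.09 and 0.98 ± 0.17, and the difference from male MTECs was not called for these 4. Tnfaip3 and Tnip3, both brakes on the pathway, rose by 1.97 ± 0.25 and 1.75 ± 0.31 in female MTECs, with male values of 0.23 ± 0.25 and 0.16 ± 0.31 (edgeR adjusted p of the difference 0.00456 and 0.0204). Birc3 had a female log2 fold change of -0.01 ± 0.08 and the difference was called at 0.51 (edgeR adjusted p = 0.005). Bcl3 fell by 0.32 ± 0.10 on the log2 scale in female MTECs, and the difference was 0.60.

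Of the other higher genes, C3 had a female average of 0.36 ± 0.11, and the difference of 0.54 from male MTECs was called (edgeR adjusted p = 0.0282). That average joined 1.18 ± 0.16 in female WT, above the 0.99 of male WT, with -0.45 ± 0.16 in female KO. Steap4 and Vnn3 were higher in male and fell in female MTECs, by 0.40 ± 0.13 and 1.08 ± 0.16, and the differences of 1.20 and 1.94 were called. Ltb rose by 1.37 ± 0.19 on average in female MTECs with no called difference, with 2.34 ± 0.27 in WT and 0.40 ± 0.27 in KO. Of the lower genes, Chil4, Sult1c2 and Plch1 fell by 5.41 ± 0.50, fell by 4.27 ± 0.45 and fell by 2.47 ± 0.13 on the log2 scale in female MTECs, changes that lie outside the male 95% intervals. F2r had a female average of 0.25 ± 0.06, with 0.48 ± 0.09 in WT and 0.02 ± 0.09 in KO, and the difference of -0.49 from male MTECs was called.

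**Figure D5:**
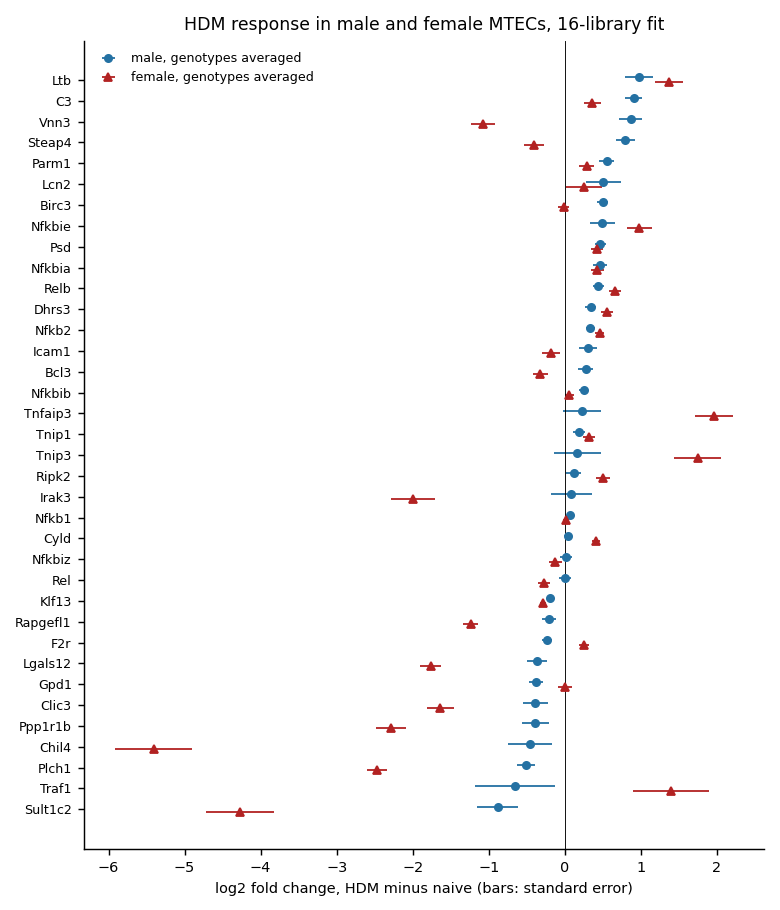
Log2 fold change of HDM minus naive, averaged over genotypes, in male (blue circles) and female (red triangles) MTECs from the fit of 16 libraries, with bars of 1 standard error, for the NF-κB list and the 20 genes named by rule for the male comparison. Male values lie between -0.88 and 0.98, whereas the female values reach from -5.41 for Chil4 to 1.97 for Tnfaip3.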

How the data were processed

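The authors deposited raw read counts per gene for 16 libraries of bulk RNA from murine tracheal epithelial cell cultures (MTECs). According to the submitters' processing notes, Trimmomatic 0.36, STAR 2.5.2b, featureCounts, Subread 1.5.2 and DESeq2 were used with GRCm38, and the notes do not say whether counting used strand. Of 49315 identifiers 48970 matched a gene name. Totals ran from 21860698 to 43442188 counts. Groups and replicate numbers came from the labels, and a count column without a number was taken as replicate 1. Replicates are labelled biological, and p-values measure only the spread between these libraries.

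Counts were scaled with TMM factors, filtered with filterByExpr and tested two-sided with edgeR 4.0.16 (quasi-likelihood, R 4.3.3), with Benjamini-Hochberg adjustment over all tested genes and a threshold of 0.05. The pooled fit used 8 male libraries with genotype and treatment as terms. Group means of the same 8 libraries gave each genotype and the interaction, and group means of 16 libraries gave male minus female. Log2 CPM used a prior count of 2. Without a test, a gene moved alike when both HDM libraries lay on the same side of both naive libraries in each genotype. The smallest change was the standard error times the quantile of t. The fits were tested on simulated data. Alternatives used limma 3.58.1, DESeq2 1.42.0 and sva 3.50.0.

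Genes were named by rule: Lman1 and Mcfd2, up to 10 called genes in each direction, filled from genes of mean log2 CPM of at least 2 whose 4 HDM and 4 naive libraries do not overlap by smallest p, every tested cytokine, up to 3 members of each other list, 3 genes in each direction for the interaction and 5 for male minus female. A gene that the rule names is not reported here. Other genes in the text were named after their values were seen. The comparison, the 30 gene lists and the naming rule were chosen with earlier results of these data known.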

Additional observations from a re-analysis of the deposited data

Results flagged for a closer look

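A library lay far from the other 3 of its kind in 12 of 156 sets of 4 libraries examined, where about 1 in 20 such sets would by chance. In the libraries labelled KO, Lman1 was 14.0 CPM in KO naive replicate 1 and 62.9 to 66.0 CPM in the others. Among naive libraries, WT naive replicate 2 was high for Lcn2 at 277 CPM (others 213 to 218 CPM). WT naive replicate 1 was high for F2r at 226 CPM (others 195 to 199 CPM) and for Klf13 at 130.1 CPM (others 124 to 125 CPM).

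Among HDM libraries, Steap4 was 37.1 CPM in WT HDM replicate 2 (others 22.2 to 24.7 CPM) and Ripk2 was 9.62 CPM in KO HDM replicate 1 (others 11.8 to 12.1 CPM). WT HDM replicate 1, which also stood apart on the first principal component, accounted for the other 6. It was high for Nfkbia at 98.9 CPM (others 83.3 to 85.4 CPM) and for Lif at 77.7 CPM (others 38.0 to 43.9 CPM), and low for Icam1 at 173 CPM (others 232 to 236 CPM). Its summed level was 10874 CPM for glycolysis and hypoxia genes (others 7537 to 8003 CPM), 6656 CPM for junction genes (others 5267 to 5421 CPM) and 1411 CPM for protease and remodelling genes (others 1612 to 1642 CPM).

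The HDM response differed between male and female MTECs in 3932 genes by edgeR. Among the genes chosen for this difference, male minus female log2 fold changes were -1.95 for Ntn1, -1.67 for Slc24a3, -1.51 for Kirrel and -1.45 for Sorbs2, and 2.31 for Hcar2, 3.67 for Wfdc1, 2.63 for Fam83e, 3.24 for Acsm1 and 3.05 for Aldh1a1. Of the higher genes in male MTECs, the difference was 0.54 for C3, 0.51 for Birc3, 1.20 for Steap4 and 1.94 for Vnn3. Of the lower genes it was 3.38 for Sult1c2, 1.96 for Plch1, 1.40 for Lgals12, 4.95 for Chil4, 1.03 for Rapgefl1, -0.49 for F2r, 1.25 for Clic3 and 1.90 for Ppp1r1b. Of the NF-κB list it was also called for Tnfaip3 (-1.74), Tnip3 (-1.58), Bcl3 (0.60), Irak3 (2.09) and Cyld (-0.37).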

How the results depend on the processing

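The count of genes called in the pooled comparison was 0 under each single library left out, upper-quartile scaling, at least 10 counts in every library, no genotype covariate, all 16 libraries and limma voom. It was 1 with library size only, 5 with no filter on low counts, 12 with DESeq2, 7 with 1 surrogate variable and 14 without the 3 libraries that stood apart, the last 2 chosen after seeing the data. The replicate number as a block gave 0 calls (315 genes at an unadjusted p under 0.05, or 362 with 4 levels). Replicate differences correlated at 0.465 between WT naive and WT HDM and at -0.159 between KO naive and KO HDM, and at 0.507 and 0.012 between WT and KO in naive and in HDM libraries. Since 1 of the 2 pairs was negative, the numbers were not taken as pairs, and whether replicate numbers mark a culture batch was not tested. With the numbers crossed in KO, chosen after seeing the data, the pairing gave 0 calls and 323 unadjusted. The median smallest change was 0.75 with no filter, 0.23 with at least 10 counts, 0.23 and 0.23 with the block of 2 and 4 levels, 0.23 with all 16 libraries, 0.18 with the surrogate variable, 0.21 without the 3 libraries and 0.25 to 0.31 with 1 library left out. Genes moving alike numbered 826 with no filter, 59 with the fold limit, 707 to 1340 with 1 library left out and 4116 without the 3 libraries. The interaction was called in 335 genes without the 3 libraries. The male minus female count was 3866 in WT libraries, 569 in the libraries labelled KO and 2978 to 4483 with 1 male library left out. The log2 fold change of Il33 turned from -0.03 to 0.39 without KO naive replicate 1 and 0.33 without the 3 libraries, and lay between -0.17 and 0.39 with 1 library left out. The cause of these shifts was not tested, except that leaving out a library, or the filter, changes how many libraries or genes are compared. Over 129 named genes, 2655 of 2698 comparisons kept direction and side of the threshold, 29 passed it newly, 12 moved and 2 reversed.

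In the pooled comparison of 4 HDM with 4 naive libraries, the smallest change reaching the unadjusted threshold was larger at low expression. Its median on the log2 scale was 0.88 for genes with a mean log2 CPM under 0. It was 0.16 for genes from 6 to 8 and 0.20 from 8 upward. As 0.88 is a median, a smaller change could reach that threshold in some of the genes under 0 and not in others.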

Other observations

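The genes below were chosen after their values were seen, none was called in the pooled comparison of all 8 male libraries, and no group of genes was tested. Rarb, the retinoic acid receptor beta and itself a known target of retinoic acid, stood at 53.3 and 54.6 CPM in WT naive, 69.7 and 64.2 CPM in WT HDM, 52.1 and 60.7 CPM in KO naive and 69.1 and 67.5 CPM in KO HDM libraries. Its log2 fold change was 0.29 ± 0.06, and the groups did not overlap. Cyp26b1 (log2 fold change 0.86 ± 0.29) stood at 28.7 and 14.9 CPM in WT naive, 62.2 and 29.7 CPM in WT HDM, 25.5 and 15.7 CPM in KO naive and 31.5 and 32.7 CPM in KO HDM libraries, also without overlap. In female MTECs Rarb, Dhrs3 and Cyp26b1 rose by 0.47 ± 0.07, 0.56 ± 0.08 and 1.89 ± 0.25 on the log2 scale after adjustment (edgeR). Dhrs9, which oxidises retinol, differed mainly between replicates, with 31.8, 11.2 and 36.9 CPM in the 3 libraries that stood apart and between 57.2 and 89.8 CPM in the other 5. It was the 1 lower gene called without those 3 libraries, at a log2 fold change of -0.59.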
